A study of Mus musculus with 4 samples.

Results

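The genes described here carry the contacts that fibroblasts make with each other: the cadherins and protocadherins, the atypical cadherins Celsr and Fat, the catenins that tie cadherins to actin, and the connexins and pannexins, which form channels. They were chosen by the names in the array files (Cdh, Pcdh, Celsr, Fat, Ctnna, Ctnnb, Ctnnd, Gja, Gjb, Gjc, Gjd and Panx), leaving out Cdh1 and Cdh5. This gave 98 of the 27962 gene names on the array, read by 173 of its 41174 probes. RNA from mouse embryo fibroblasts (MEFs) of 2 genotypes was hybridised together on each of 4 Agilent arrays with 60-mer probes. STMN1-/- MEFs lack stathmin, a protein that destabilizes microtubules, from an allele in which a neomycin cassette disrupts the gene in every cell, and STMN1+/+ MEFs carry the intact gene. Both came from embryos of C57BL/6 STMN1+/- matings at mid-gestation, grown in the same serum-containing medium, and received no treatment. On replicates 1 and 2 the STMN1-/- RNA carried Cy3, and on replicates 3 and 4 it carried Cy5. The sources used here do not say which embryo or RNA extract each array held, so p-values cover the array-to-array spread alone, and that spread may be technical. Stmn1, read by 2 probes, was lower in STMN1-/- RNA on 4 of 4 arrays with each, at log2 ratios of -0.39 ± 0.070 (SE, adjusted p = 0.018 by limma) and -2.16 ± 0.063 (adjusted p = 0.00060). The authors state that the array's probe for the gene also matches a region of another chromosome, without naming the probe. They report STMN1 mRNA and protein to be absent from STMN1-/- MEFs by qRT-PCR and western blotting.

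Cadherins are calcium-dependent adhesion receptors: classical cadherins of neighbouring cells bind each other through their outer domains, and their tails hold β-catenin and a p120-type catenin, with α-catenin linking the complex to actin filaments. Fibroblasts are known for the mesenchymal members Cdh2 (N-cadherin) and Cdh11 (OB-cadherin). Protocadherins have related outer domains but do not bind the classical catenins. Most are known from the nervous system, where the 3 clustered families α, β and γ give each neuron a set of surface labels. Connexins assemble into gap junctions, through which ions and small molecules pass between cells, and Gja1 is the most widespread of them.

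A probe entered the test if 1 array or more showed it well above background in one of its channels and at least 2 arrays had a usable value. This held for 112 member probes of 72 genes, while 61 probes were left out as dim and 26 genes had no tested probe. Log2 ratios of STMN1-/- over STMN1+/+ signals were tested against 0 with limma across all 27648 tested probes, and adjusted p-values are from that fit. Over all probes, 11.2% were higher and 11.2% lower in STMN1-/- MEFs at an adjusted p under 0.05. Of the 112 member probes, 37 were higher (33.0%), 26 were lower (23.2%) and 49 did not pass. With each gene taken by its probe of highest mean signal, 25 genes were higher and 17 lower, and 30 did not pass. In cultures measured in bulk, fewer cells of a type and less RNA per cell cannot be told apart. The median log2 ratio of the member probes was 0.13, and that of all tested probes was -0.0021. Leaving out 1 array gave 24 (without replicate 3) to 27 probes higher and 15 or 16 lower, whichever array was left out; over all probes, 5.30% to 5.99% were then higher and 4.89% to 5.59% lower.

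**Figure D1:**
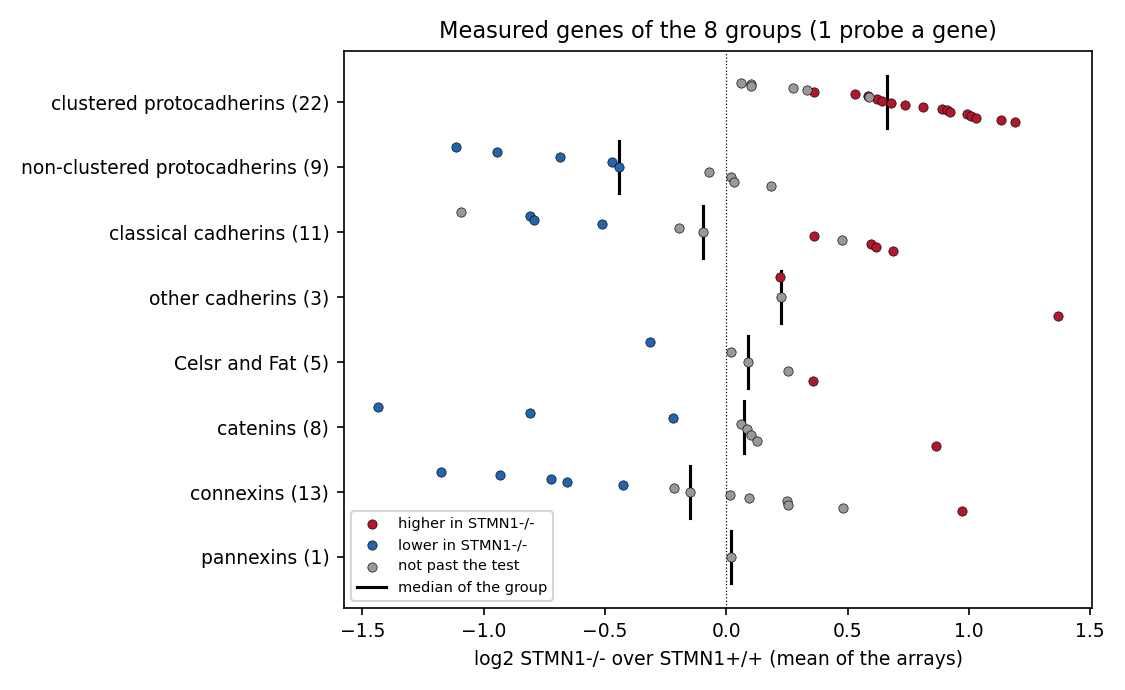
Mean log2 STMN1-/- over STMN1+/+ of the 72 measured genes, 1 probe a gene, in 8 groups with the number of genes in each (vertical bar, median of the group). All 16 changed clustered protocadherins lie above 0 (Pcdha6, Pcdha9 and Pcdhga7 by probes in exons shared within their cluster). All 5 changed non-clustered protocadherins lie below 0, while classical cadherins, catenins and connexins hold changed genes on both sides. The grey point near -1.1 among the classical cadherins is Cdh8, whose mean is set by 1 array (-4.88).

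Among the classical cadherins, 11 of 16 genes were measured. Cdh3, Cdh15, Cdh11 and Cdh10 were up-regulated and Cdh2, Cdh4 and Cdh20 were down-regulated in STMN1-/- MEFs, while Cdh6, Cdh8, Cdh22 and Cdh24 did not pass the test. The shares were 36.4% higher and 27.3% lower, against 11.2% and 11.2% of all tested probes. Cdh11, the cadherin of mesenchymal cells, had processed signals (arbitrary fluorescence units after background subtraction and dye normalization) on replicates 1 to 4 of 63848, 69814, 75209 and 76597 in STMN1-/- MEFs, against 43138, 48994, 50308 and 45989 in STMN1+/+ MEFs. No array overlapped, and the gene was 1.51-fold higher (mean log2 ratio 0.60 ± 0.063 (SE), adjusted p = 0.0048). Its other 2 probes were also higher, at log2 0.66 and 0.48. Cdh2, N-cadherin, moved the other way, with 4203, 4549, 4922 and 5282 in STMN1-/- MEFs, against 7656, 8658, 7733 and 9174 in STMN1+/+ MEFs. The genotypes again did not overlap, a 1.75-fold decrease (mean log2 ratio -0.81 ± 0.068 (SE), adjusted p = 0.0026). A dimmer Cdh2 probe was above background on 0 arrays for STMN1-/- RNA and 2 for STMN1+/+ RNA. It was at -0.37 ± 0.13 and did not pass (adjusted p = 0.11). Its STMN1-/- signals were also raised to each array's lowest spot called above background, where they lay below it. The STMN1+/+ mean was then 1.20-fold above the STMN1-/- mean.

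Cdh3, P-cadherin, which is known from basal epithelium and hair follicles, had signals of 7482, 8122, 6507 and 7889 in STMN1-/- MEFs, against 3912, 4832, 4461 and 5477 in STMN1+/+ MEFs. The STMN1-/- value was the higher one on all 4 arrays, by 1.61-fold (mean log2 ratio 0.69 ± 0.090 (SE), adjusted p = 0.0081). Cdh15, M-cadherin of skeletal muscle, had 1175, 1170.1, 1049 and 1260.1 in STMN1-/- MEFs, against 768, 779, 642 and 856 in STMN1+/+ MEFs, a 1.53-fold difference with the smallest standard error of the group apart from Cdh20 (mean log2 ratio 0.62 ± 0.057 (SE), adjusted p = 0.0033). Cdh4, R-cadherin, a close relative of N-cadherin, had 1089.8, 1449, 1452 and 1619 in STMN1-/- MEFs, against 2442, 2891, 2202 and 2161 in STMN1+/+ MEFs. Its lowest STMN1+/+ signal was still above its highest STMN1-/- signal, and it was 1.73-fold lower (mean log2 ratio -0.79 ± 0.14 (SE), adjusted p = 0.019). That call was lost without replicate 1, 2 or 3 (adjusted p up to 0.074). Of its other probes, both dim, 1 was lower (log2 -0.44) and 1 did not pass (-0.17). By RT-PCR array the authors report Cdh4 as higher in STMN1-/- MEFs, opposite to their microarray result. They report Cdh3 as higher by both methods. The 4 genes that did not pass had values on both sides of 0 over the arrays: Cdh22 ran between -0.61 and 1.79, and Cdh8 stood at -4.88, 0.53, -0.051 and 0.026.

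**Figure D2:**
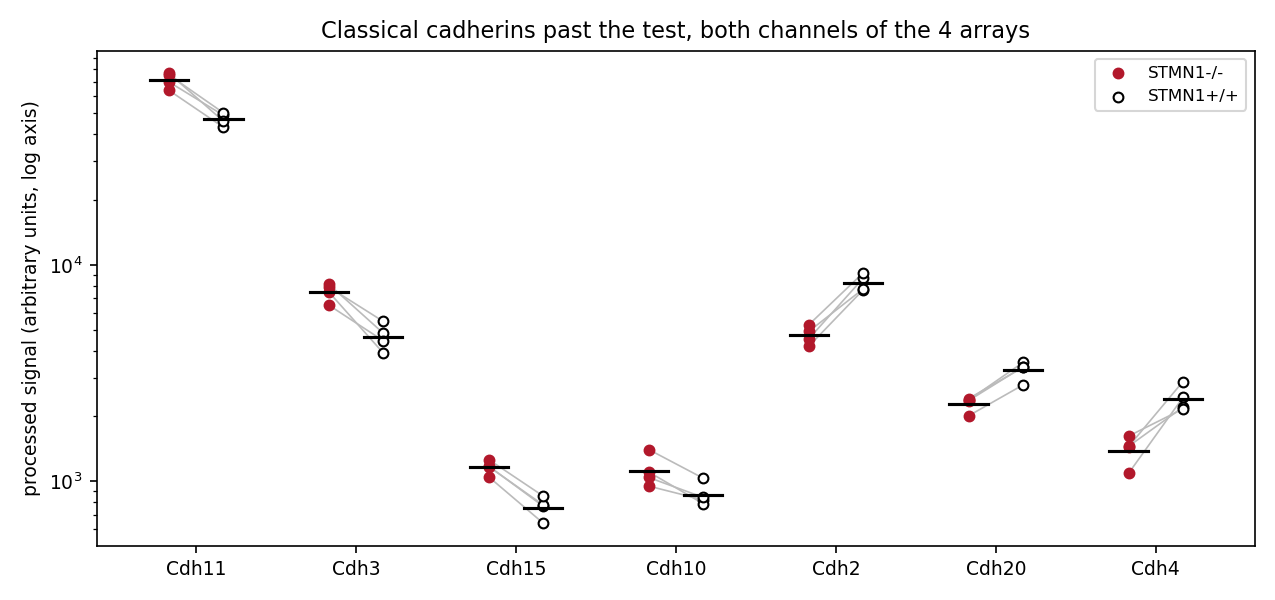
Processed signals (arbitrary units, log axis) of the 7 classical cadherins past the test, in STMN1-/- RNA (filled, left) and STMN1+/+ RNA (open, right) of the same 4 arrays, joined by lines; bars are geometric means. For Cdh11, Cdh3 and Cdh15 every filled point lies above every open one and for Cdh2 and Cdh4 below, while Cdh10 overlaps between arrays although each array shows the same direction.

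Cdh10 and Cdh20 are type II cadherins, both best known from the brain, and their probes lie in a stretch that the paralogues share. They are shown because 41 of their 60 bases are the same at the same position, yet the genes moved in opposite directions. Capitals mark the shared bases; the longest unbroken shared run is 8 bases. The probes map to chr15:19073414-19073473 and chr1:104893471-104893530 in the mm7 coordinates of the array files.
Cdh10: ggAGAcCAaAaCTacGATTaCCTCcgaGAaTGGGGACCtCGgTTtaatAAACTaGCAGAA
Cdh20: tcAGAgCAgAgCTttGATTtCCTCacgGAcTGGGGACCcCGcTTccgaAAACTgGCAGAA
Cdh10 had signals of 952, 1106, 1043 and 1403 in STMN1-/- MEFs, against 822, 789, 844 and 1035 in STMN1+/+ MEFs, and was 1.28-fold higher (mean log2 ratio 0.36 ± 0.070 (SE), adjusted p = 0.024). A dimmer Cdh10 probe was also higher, at log2 0.94 ± 0.18, with STMN1+/+ RNA above background on 1 array. Cdh20 had 2372, 2362, 2009 and 2412 in STMN1-/- MEFs, against 3543, 3382, 2789 and 3363 in STMN1+/+ MEFs. This was 1.43-fold lower, with 4 array values between -0.58 and -0.47 (mean log2 ratio -0.51 ± 0.054 (SE), adjusted p = 0.0049).

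Of the 5 other cadherins, 3 were measured. Cdh16, known as the kidney cadherin, had the highest log2 ratio of all members, with signals of 379, 477, 505 and 605 in STMN1-/- MEFs, against 247, 119.7, 175 and 240.0 in STMN1+/+ MEFs. All 4 arrays pointed upwards, but by unequal amounts, with log2 ratios of 0.62, 1.99, 1.53 and 1.33, and the mean was 2.58-fold (mean log2 ratio 1.37 ± 0.23 (SE), adjusted p = 0.015). The call was lost without replicate 3 or 4 (adjusted p = 0.061 and 0.060). Cdh13, T-cadherin, which has no tail and is held in the membrane by a lipid anchor, had 11239, 11616, 9979.7 and 11657 in STMN1-/- MEFs, against 9635, 10557, 8417 and 9549 in STMN1+/+ MEFs. It was 1.17-fold higher (mean log2 ratio 0.22 ± 0.057 (SE), adjusted p = 0.048), a call that was lost whichever array was left out (adjusted p = 0.10 to 0.16), and a dim probe of the gene pointed the other way (-0.091 ± 0.11, adjusted p = 0.59). Cdh26 did not pass (0.22 ± 0.12).

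The clustered protocadherins that changed were all higher in STMN1-/- MEFs. Of 31 genes on the array 22 were measured, each taken by its probe of highest mean signal. Of these, 16 were higher and 0 lower in STMN1-/- MEFs, with a median log2 ratio of 0.66. Among the 16, Pcdha6, Pcdha9 and Pcdhga7 were taken by probes in exons shared within their cluster, which cannot be assigned to 1 gene. Their probes in the variable part were at -0.18, 0.35 and 0.24, and only that of Pcdha9 passed. Counted by probes, 22 of 30 were higher (73.3%) and 0 lower, where 11.2% of all tested probes were higher and 11.2% lower. The 3 clusters lie side by side on chromosome 18. The β cluster accounted for 13 of the 16 genes: 13 of 15 measured Pcdhb genes were higher, with a median of 0.89, and the other 2, Pcdhb10 and Pcdhb18, had positive means (0.59 ± 0.24 and 0.33 ± 0.092) that did not pass. Each Pcdhb gene is a single exon with its own transcript. Pcdhb21 had signals of 1232, 1228, 1161 and 1164 in STMN1-/- MEFs, against 575, 531, 479 and 607 in STMN1+/+ MEFs. The genotypes did not overlap, and the gene was 2.19-fold higher (mean log2 ratio 1.13 ± 0.076 (SE), adjusted p = 0.0015). Pcdhb20 had 851, 917, 916 and 873 in STMN1-/- MEFs, against 478, 492, 375 and 407 in STMN1+/+ MEFs, 2.04-fold higher (mean log2 ratio 1.03 ± 0.094 (SE), adjusted p = 0.0032). Pcdhb22, the brightest gene of the cluster measured on every array, had 1398, 1535, 1496 and 1642 in STMN1-/- MEFs, against 932, 989, 954 and 1006 in STMN1+/+ MEFs. Its log2 ratios stayed within 0.59 to 0.71, a 1.56-fold difference (mean log2 ratio 0.64 ± 0.055 (SE), adjusted p = 0.0026). Pcdhb17, measured on replicates 1, 3 and 4, had 1354, 1832 and 2125 in STMN1-/- MEFs, against 842, 841 and 944 in STMN1+/+ MEFs, 1.99-fold higher (mean log2 ratio 0.99 ± 0.13 (SE), adjusted p = 0.013).

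The other Pcdhb genes chosen by size of change were dim. With the processed signals Pcdhb19 had the largest ratio of the cluster, with 334, 323, 302 and 315 in STMN1-/- MEFs, against 92.8, 154, 143 and 184 in STMN1+/+ MEFs, 2.28-fold higher (mean log2 ratio 1.19 ± 0.18 (SE), adjusted p = 0.013). STMN1+/+ RNA was well above background for it on 2 of 4 arrays, and with normexp and loess its ratio was 0.27, below those of Pcdhb17 (0.64), Pcdhb21 (0.51) and Pcdhb20 (0.41). Pcdhb3 had 298, 243, 269 and 291 in STMN1-/- MEFs, against 127, 173, 129.8 and 120.4 in STMN1+/+ MEFs, 2.01-fold higher (mean log2 ratio 1.01 ± 0.15 (SE), adjusted p = 0.011), with STMN1+/+ RNA above background on 1 array. Pcdhb7, Pcdhb15 and Pcdhb14 had log2 ratios of 0.92 ± 0.15, 0.91 ± 0.076 and 0.89 ± 0.21, and each was higher on 4 of 4 arrays, with STMN1+/+ RNA above background on 1, 3 and 2 of them. The calls of Pcdhb7 (without replicate 2, 3 or 4), Pcdhb14 (without 1, 2 or 3) and Pcdhb17 (without 3 or 4) were lost with 1 array fewer, with adjusted p up to 0.054, 0.11 and 0.064. Pcdhb4, Pcdhb5, Pcdhb6 and Pcdhb16 were higher at 0.81, 0.59, 0.62 and 0.53. The Pcdhb genes are close paralogues, and cross-matches of the probes to other members of the cluster were not analysed here. Between tested probes of different Pcdhb genes, at most 39 bases matched in any ungapped overlap of at least 30 bases, and the longest shared run was 23 bases, between Pcdhb6 and Pcdhb15.

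In the α and γ clusters, each variable exon is spliced to constant exons that all genes of the cluster share, at its 3′ end. The position of a probe therefore sets what it can report. The 3 tested probes at the 3′ end of the α cluster, named Pcdha6 and Pcdha9 in the files, were all higher, at log2 0.46 to 0.74. The brightest of them had 2193, 2852, 2539 and 3254 in STMN1-/- MEFs, against 1312, 1898, 1599.9 and 1977 in STMN1+/+ MEFs. Of the probes within the variable part, the Pcdha9 probe was higher (0.35 ± 0.073) and the Pcdha6 probe was at -0.18 ± 0.084 (adjusted p = 0.20), opposite in sign to the probe of the same name at the 3′ end (0.74 ± 0.070, adjusted p = 0.0036). In the γ cluster, the 3 probes at the 3′ end, all named Pcdhga7, were higher, at 0.36 to 0.50, and the brightest had 149208, 181013, 149642 and 155760.0 in STMN1-/- MEFs, against 115604, 130161, 116030.0 and 132357 in STMN1+/+ MEFs. The 5 tested γ probes in the variable part, for Pcdhga1, Pcdhga4, Pcdhga7, Pcdhga9 and Pcdhgb4, ran between 0.059 and 0.28, and 0 passed. The probes at the 3′ ends cannot be assigned to 1 gene, and the difference between 3′ end and variable probes was not tested.

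**Figure D3:**
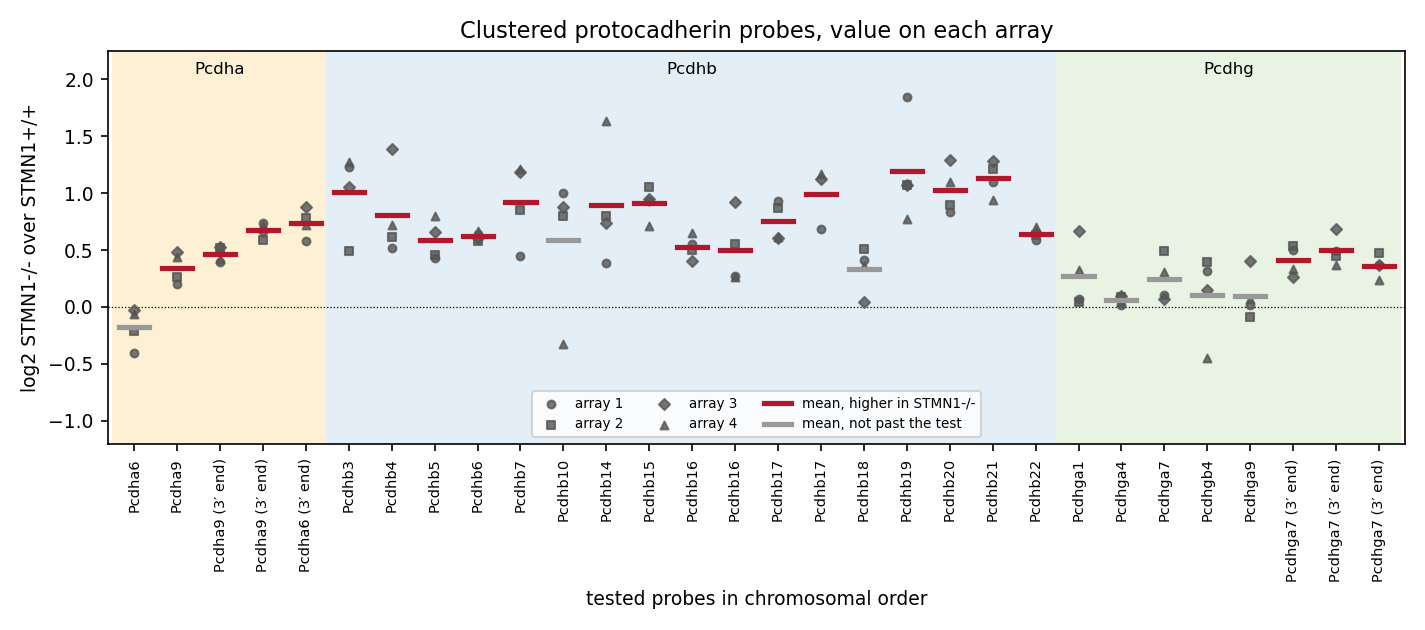
Log2 STMN1-/- over STMN1+/+ of the 30 tested clustered protocadherin probes in chromosomal order, with the value on each array and the mean (red, past the test; grey, not). The Pcdhb means all lie between 0.33 and 1.19, and in the Pcdha and Pcdhg clusters the probes at the 3′ end are the higher ones.

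The count was lower with another background correction and dye normalization, changed together. When the processed signals were replaced by normexp-corrected, loess-normalized ones, 2 of the 30 clustered probes passed in place of 22, while 3.58% of all probes were higher. With 1 probe a gene, the means of 2 Pcdha, 15 Pcdhb and 5 Pcdhg genes stayed positive under that correction. The Pcdhb median was 0.20 in place of 0.89. The Pcdha6 probe in the variable part, which does not represent the gene, was at -0.0063. Leaving out 1 array left 15 to 17 of the clustered probes higher and 0 lower, where 5.30% to 5.99% of all probes were higher. Genes known to act on these clusters, namely the insulator protein gene Ctcf, the cohesin genes Rad21, Smc1a, Smc3, Stag1 and Stag2 with Nipbl and Wapl, Dnmt3b and Setdb1, did not pass the test. Smchd1, a repressor of the clusters in mouse, was lower (-0.23 ± 0.054, adjusted p = 0.038).

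The non-clustered protocadherins that changed were all lower. Of 13 genes, 9 were measured, 5 were lower and 0 were higher, with a median of -0.44 (9 of 16 probes lower). Among all tested probes, 11.2% were lower and 11.2% higher. Pcdh20 had 829, 784, 804 and 750.5 in STMN1-/- MEFs, against 1587, 1807, 1693 and 1782 in STMN1+/+ MEFs. The 2 genotypes were far apart on every array, and Pcdh20 was 2.17-fold lower (mean log2 ratio -1.12 ± 0.074 (SE), adjusted p = 0.0015). Pcdh9, which is known from the developing brain, had 4714, 4943, 5008 and 5909 in STMN1-/- MEFs, against 8540.0, 9284, 7281 and 7976 in STMN1+/+ MEFs, 1.61-fold lower (mean log2 ratio -0.68 ± 0.10 (SE), adjusted p = 0.012). All 4 of its tested probes were lower, at -0.42 to -0.68. Pcdh7 had 3751, 3905, 3414 and 3258 in STMN1-/- MEFs, against 5213, 5368, 4762 and 4515 in STMN1+/+ MEFs. Its log2 ratio was between -0.48 and -0.46 on every array, 1.39-fold lower (mean log2 ratio -0.47 ± 0.051 (SE), adjusted p = 0.0052). Pcdh10 was 1.36-fold lower (mean log2 ratio -0.44 ± 0.069 (SE), adjusted p = 0.013), as was 1 of its 2 other tested probes (-0.63), while the other did not pass (-0.66, adjusted p = 0.056).

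Cdhr1, called Pcdh21 in the files and known as a cadherin of photoreceptors, was dim, with 127, 112, 153 and 86 in STMN1-/- MEFs, against 243, 252, 195 and 215 in STMN1+/+ MEFs. It was 1.93-fold lower (mean log2 ratio -0.95 ± 0.17 (SE), adjusted p = 0.019) but STMN1-/- RNA was above background on only 1 array and the ratio was -0.11 with normexp and loess, and the call was lost without replicate 1, 2 or 4 (adjusted p up to 0.076). Pcdh18 and Pcdh19, the brightest probes of the group, did not pass (0.19 ± 0.074 and -0.072 ± 0.11), nor did Pcdh1 (0.032 ± 0.18) and Pcdh17 (0.019 ± 0.12). The count of lower probes was 4 without replicate 1, 4 without replicate 2, 5 without replicate 4 and 7 without replicate 3. It was 2 with normexp and loess. Over all probes, 4.89% to 5.59% were lower with 1 array left out and 4.15% with normexp and loess.

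All 5 genes of Celsr and Fat that match the names were measured; Fat1 has no row under that name and was not analysed here. Fat4, an atypical cadherin of planar cell polarity, had 4737, 5579, 5632 and 5561 in STMN1-/- MEFs, against 3515, 4680.1, 4394 and 4235 in STMN1+/+ MEFs. It was 1.28-fold higher (mean log2 ratio 0.36 ± 0.059 (SE), adjusted p = 0.015), and its other tested probe gave 0.38. Dchs1, whose protein is the partner of Fat4 on the opposite cell, was also higher (0.99 ± 0.062, adjusted p = 0.0013), and so was Fjx1 (0.67 ± 0.11, adjusted p = 0.015), homologous to the fly kinase that acts on Fat and Dachsous. Celsr1, a core planar polarity gene, had 1306, 1277, 1541 and 1685 in STMN1-/- MEFs, against 1805, 1709.7, 1726 and 1952 in STMN1+/+ MEFs, 1.24-fold lower (mean log2 ratio -0.32 ± 0.077 (SE), adjusted p = 0.043). The signals did not overlap, but leaving out any one array lost the call (adjusted p up to 0.14). Celsr2 and Celsr3 did not pass (0.018 ± 0.084 and 0.088 ± 0.075). Fat3 was dim: the brighter of its tested probes ran between -0.87 and 1.46 and did not pass, and the dimmer one, above background on 2 arrays with STMN1+/+ RNA, was higher (0.67 ± 0.16, adjusted p = 0.038).

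Of the 8 measured catenins and related genes, 3 were lower (37.5%) and 1 was higher (12.5%), against 11.2% and 11.2% of all tested probes. Ctnnb1, which encodes β-catenin, had 39742, 44731, 53119 and 61608 in STMN1-/- MEFs, against 40429.5, 47658, 40509 and 52535 in STMN1+/+ MEFs. Its array values lay on both sides of 0 and it did not pass (mean log2 ratio 0.13 ± 0.10 (SE), adjusted p = 0.42), nor did its other 2 probes. Ctnnd1, the p120-type catenin that holds cadherins at the surface, had 2460.5, 2418, 1989 and 2011 in STMN1-/- MEFs, against 1674, 1938, 2337 and 2357 in STMN1+/+ MEFs. The 2 arrays of one dye orientation gave 0.56 and 0.32 and the 2 of the other gave -0.23 each, and the mean did not pass (mean log2 ratio 0.10 ± 0.16 (SE), adjusted p = 0.69). Ctnna1, αE-catenin, had 229828, 242264, 231805 and 223437 in STMN1-/- MEFs, against 273008, 271448, 273988 and 262327 in STMN1+/+ MEFs. It was 1.17-fold lower with no overlap between the genotypes (mean log2 ratio -0.22 ± 0.053 (SE), adjusted p = 0.042), a call that each array left out in turn removed (adjusted p = 0.11 to 0.14). The authors report the opposite direction for Ctnna1, higher in STMN1-/- MEFs in their microarray results and by RT-PCR array. They report Ctnnb1 as lower by both methods.

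Ctnnd2, δ-catenin, a neural relative of the p120-type catenin, had the lowest log2 ratio of the members past the test. Its signals were 585, 468, 695 and 742 in STMN1-/- MEFs, against 1689, 1675, 1466 and 1824 in STMN1+/+ MEFs. STMN1-/- RNA was 2.71-fold lower (mean log2 ratio -1.44 ± 0.13 (SE), adjusted p = 0.0034), and a dimmer probe was lower too (-0.95). Ctnna2, αN-catenin of neurons, was the 1 catenin that was higher, with 3062, 2979.8, 3185 and 2864 in STMN1-/- MEFs, against 1707, 1775, 1553 and 1607 in STMN1+/+ MEFs. The difference was 1.82-fold (mean log2 ratio 0.87 ± 0.069 (SE), adjusted p = 0.0023), and the other tested probe gave 0.95. Ctnnal1, α-catulin, had 5109.9, 6128, 5689 and 6764 in STMN1-/- MEFs, against 10291, 11508, 8576 and 11174 in STMN1+/+ MEFs. It was 1.75-fold lower (mean log2 ratio -0.81 ± 0.088 (SE), adjusted p = 0.0052), and its other 3 probes were lower by 0.87 to 1.31 on the log2 scale, 2 of them above background on 1 array with STMN1-/- RNA. Neural and glial markers were also lower (6 of 11), and their part in Ctnnd2 was not tested. Ctnnbip1 and Ctnnbl1 did not pass (0.059 ± 0.058 and 0.087 ± 0.075). Of 20 genes of the β-catenin pathway, 17 were measured, 2 were higher and 1 was lower, with a median of 0.052. Over all tested probes, 11.2% were higher and 11.2% lower. Pygo1 (0.48 ± 0.086) and Axin2 (0.47 ± 0.066), a feedback target of the pathway, were higher. Lef1 (-0.39 ± 0.070), a DNA-binding partner of β-catenin, was lower.

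Of the 17 connexin genes 13 were measured, 5 were lower and 1 was higher. The shares were 38.5% lower and 7.69% higher, against 11.2% and 11.2% of all tested probes. Gja1, the widespread connexin of fibroblasts, had 8429, 10035, 8937 and 10812 in STMN1-/- MEFs, against 15416, 17688, 13482 and 16441 in STMN1+/+ MEFs. The genotypes did not overlap, and Gja1 was 1.65-fold lower (mean log2 ratio -0.72 ± 0.075 (SE), adjusted p = 0.0046). Gjb2, a connexin of the inner ear and skin, was the 1 that was higher, with 2402, 2237, 2672 and 3174 in STMN1-/- MEFs, against 1287, 1155, 1365 and 1522 in STMN1+/+ MEFs. Its 4 log2 ratios lay between 0.90 and 1.06, the closest agreement among the connexins past the test, and the difference was 1.96-fold (mean log2 ratio 0.97 ± 0.057 (SE), adjusted p = 0.0012). Gja3, a lens connexin, was dim in STMN1-/- RNA, above background on 2 arrays, with 163, 151, 194 and 167 in STMN1-/- MEFs, against 404, 375, 358 and 385 in STMN1+/+ MEFs. It was 2.26-fold lower (mean log2 ratio -1.18 ± 0.092 (SE), adjusted p = 0.0022). With normexp and loess the Gja3 ratio was -0.24 and did not pass (adjusted p = 0.088), and that of Gjb2 was 0.59 (adjusted p = 0.0499). Gja3 and Gjb2 are neighbours on chromosome 14 (GRCm38.p6, 57034460 to 57058030 and 57098602 to 57104702), on either side of a gap with no other connexin, and moved in opposite directions; Gjb6, next to Gjb2, was dim.

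Gjb5, a connexin of skin and placenta, had 1009, 1035, 1011 and 1325 in STMN1-/- MEFs, against 1299.8, 1425, 1576 and 1565 in STMN1+/+ MEFs, 1.34-fold lower (mean log2 ratio -0.43 ± 0.083 (SE), adjusted p = 0.023). The lowest STMN1+/+ signal of Gjb5 lay below its highest STMN1-/- signal, although each array showed the same direction. Epithelial markers were lower alongside it (7 of 8, where 11.2% of all tested probes were lower), and their part was not tested. Other connexins did not pass: Gjc1, called Gja7 in the files, had 17196, 19319, 20265 and 21239 in STMN1-/- MEFs, against 16958, 19435, 17736 and 18819 in STMN1+/+ MEFs (mean log2 ratio 0.095 ± 0.065 (SE), adjusted p = 0.35), Gja4 was at 0.015 ± 0.086, and Gja5, Gja10, Gjb1 and Gjd3 had means between -0.21 and 0.48. Of the 3 other Gja5 probes, 1 pointed down (-0.77) and 2 up (0.074 and 0.21), and 0 passed.

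**Figure D4:**
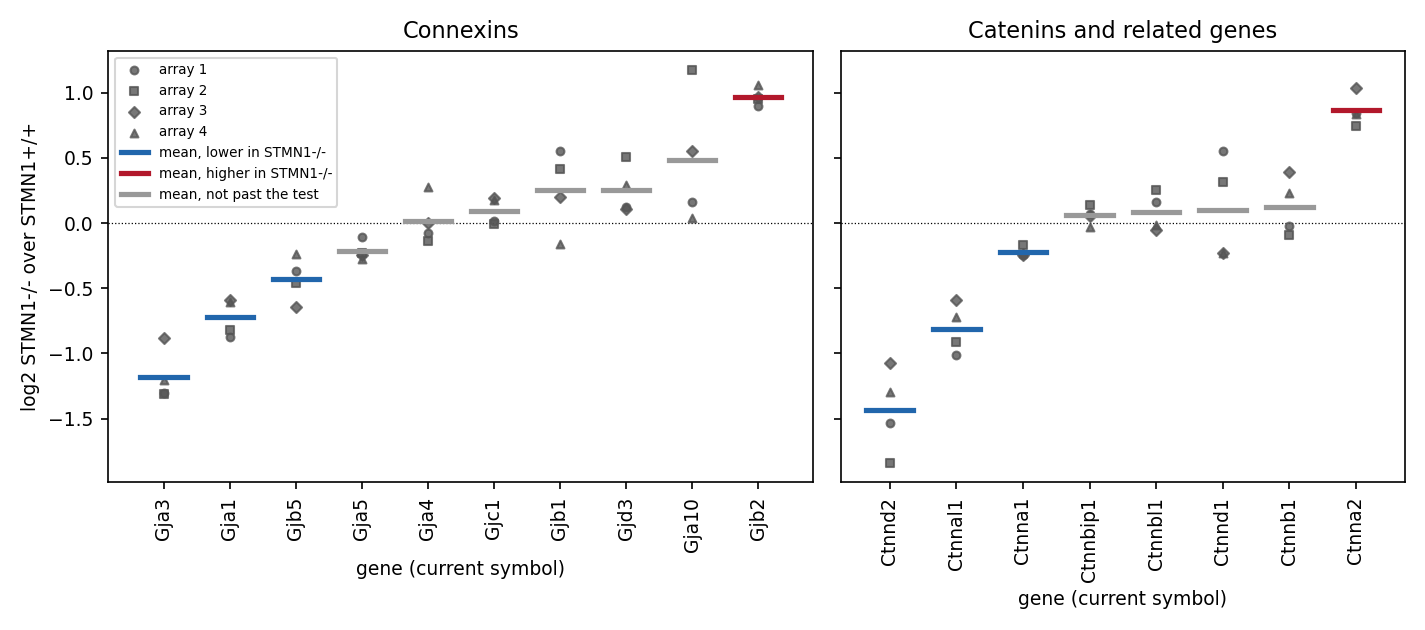
Log2 STMN1-/- over STMN1+/+ of 10 of the 13 measured connexins (left) and 8 catenins and related genes (right), with the value on each array and the mean (blue, lower; red, higher; grey, not past the test). Gja3, Gja1 and Gjb5 lie below 0 on every array measured and Gjb2 near 1; Ctnnd2 and Ctnna2 lie at the ends of the catenins and Ctnnb1 and Ctnnd1 on both sides of 0.

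Promoters of the connexins that moved are shown because neighbouring genes moved in opposite directions and Gja1 and Gjb5, on other chromosomes, were lower as Gja3 was. Each is the 250 bases before the gene's start, from the RefSeq annotation of GRCm38.p6, read along the gene: Gja3 at chr14:57058031-57058280, Gjb2 at chr14:57104703-57104952 and Gjb5 at chr4:127358165-127358414 on the minus strand, and Gja1 at chr10:56377050-56377299 on the plus strand. Capitals mark letters searched on both strands: the GC box GGGCGG, the TATA box TATAAA, the AP-1 site TGAGTCA and the E-box CAGGTG.
Gja3: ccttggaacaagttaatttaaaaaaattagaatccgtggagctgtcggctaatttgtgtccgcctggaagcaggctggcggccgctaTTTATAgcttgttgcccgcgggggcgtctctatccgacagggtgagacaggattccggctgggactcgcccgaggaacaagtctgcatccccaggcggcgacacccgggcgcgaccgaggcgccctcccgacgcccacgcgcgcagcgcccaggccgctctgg
Gjb2: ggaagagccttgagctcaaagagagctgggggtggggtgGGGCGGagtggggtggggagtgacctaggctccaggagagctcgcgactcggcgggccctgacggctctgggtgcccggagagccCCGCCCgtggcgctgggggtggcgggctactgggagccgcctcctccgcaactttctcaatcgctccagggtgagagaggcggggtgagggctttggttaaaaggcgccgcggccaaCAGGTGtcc
Gjb5: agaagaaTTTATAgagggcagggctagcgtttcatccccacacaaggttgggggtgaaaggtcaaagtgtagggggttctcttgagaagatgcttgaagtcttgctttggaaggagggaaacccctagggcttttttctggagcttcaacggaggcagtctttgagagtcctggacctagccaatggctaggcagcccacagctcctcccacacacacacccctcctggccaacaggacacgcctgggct
Gja1: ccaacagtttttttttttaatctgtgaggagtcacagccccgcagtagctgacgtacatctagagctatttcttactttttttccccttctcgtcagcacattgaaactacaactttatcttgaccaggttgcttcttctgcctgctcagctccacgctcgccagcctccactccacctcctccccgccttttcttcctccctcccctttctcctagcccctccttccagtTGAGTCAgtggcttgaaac
The Gjb2 window held 2 GC boxes and 1 E-box, the Gja3 and Gjb5 windows 1 TATA box each, and the Gja1 window 1 AP-1 site, and none of these matches overlapped another. Over windows of the same length for 27025 genes, 1 a gene, 32.9% held the GC box, 13% the TATA box, 4.43% the AP-1 site and 17.1% the E-box, so that each match is a description of the letters and not a site in use.

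Of the pannexins, Panx1, which forms channels to the outside of the cell, was the 1 gene measured and had 35151, 37934, 36157 and 31095 in STMN1-/- MEFs, against 32641, 37160.1, 35359.5 and 33110.2 in STMN1+/+ MEFs. The genotypes overlapped, with log2 ratios of 0.11, 0.030, 0.032 and -0.091 on the 4 arrays, and it did not pass (mean log2 ratio 0.020 ± 0.060 (SE), adjusted p = 0.85). Its other tested probe, dim, did not pass either (0.15 ± 0.077).

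Other junction genes were taken from lists drawn up for their roles, and their counts stand beside 11.2% higher and 11.2% lower over all tested probes. Of 20 plaque and desmosome genes, 14 were measured, 6 were lower and 1 was higher, with a median of -0.32. Pkp1 (-1.04 ± 0.077), Perp (-0.87 ± 0.073) and Dsp (-0.82 ± 0.082), which encode desmosome proteins, were lower, and Ablim1 (0.56 ± 0.11), an actin-binding protein gene, was higher. Vcl, the vinculin gene, did not pass (-0.16 ± 0.067). Of 11 nectins and their partners, 10 were measured, 5 were lower and 0 higher, with a median of -0.27; among them were Cadm4 (-0.40 ± 0.079), Nectin3 (-0.38 ± 0.062) and Cadm1 (-0.30 ± 0.074). Of 28 tight junction genes, 22 were measured, 10 were lower and 1 was higher, with a median of -0.22. Cldn1 was higher (1.49 ± 0.19), with STMN1+/+ RNA well above background on 1 of 4 arrays. Cldn6, Cldn4 and Cldn18 were lower, with mean signals of 57.2, 55.8 and 60.8 in STMN1-/- RNA, not well above background on any array, against 203, 146 and 147 in STMN1+/+ RNA. They entered the test through STMN1+/+ RNA alone, well above background on 4, 4 and 1 arrays, so the size of their ratios is uncertain. Among genes above background on 4 arrays in both genotypes, F11r (-0.68 ± 0.064), Cldn12 (-0.66 ± 0.065) and Jam2 (-0.63 ± 0.072) were lower.

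Of 15 factors known to repress or regulate Cdh1 and its relatives, 14 were measured, 4 were lower and 2 higher, with a median of -0.025. Id2 (-1.02 ± 0.060) and Id1 (-0.87 ± 0.099), inhibitors of basic helix-loop-helix factors, were lower, with Foxc2 (-0.71 ± 0.13) and Snai1 (-0.25 ± 0.056), while Twist2 (0.36 ± 0.078) and Tcf4 (0.28 ± 0.058) were higher. Snai2, Twist1, Zeb1 and Zeb2 did not pass. Of 25 regulators and partners of protocadherins, 24 were measured, with a median of -0.038. Of these, 2 were higher (Dchs1 and Fjx1) and 3 lower (Nckap1 at -0.30 ± 0.066, Ptk2b at -0.24 ± 0.052 and Smchd1). Over all tested probes, 11.2% were higher and 11.2% lower, so the counts of this list lie near that share.

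Epithelial markers were mostly lower, while the cadherins, catenins and connexins moved in both directions. Of 10 epithelial markers 8 were on the array, and 7 were lower and 0 higher, with Cdh1, which stood on no array above background in STMN1-/- RNA, lower with an adjusted p of 0.00060, Krt5 at -1.56 and Krt19 at -1.29, and their summed signal was 54821 to 64272 in STMN1-/- RNA and 82745 to 93335 in STMN1+/+ RNA. Of 11 neural and glial markers, 6 were lower and 1 higher (summed signal 30470 to 34105 in STMN1-/- RNA and 34649 to 41060 in STMN1+/+ RNA). Of 12 fibroblast markers, 10 were higher and 1 lower. Of 5 endothelial markers on the array 3 were dim in both genotypes and 1 was lower, of 7 skeletal muscle markers 1 was higher and 1 lower, and of 6 macrophage markers 2 were higher and 1 lower. Across all tested probes 11.2% were higher and 11.2% lower, and the skeletal muscle counts lie near that share. Of the epithelial list, 1 gene (Cldn7) is also in the tight junction list. The part of these cells in the changes of the cadherins, protocadherins and connexins was not tested.

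**Figure D5:**
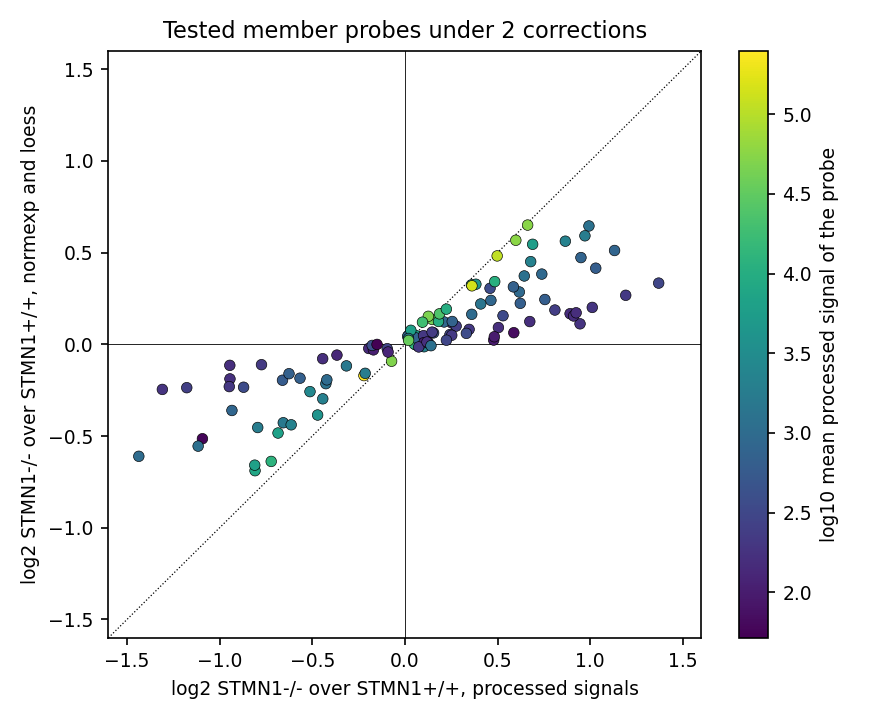
Log2 STMN1-/- over STMN1+/+ of the 112 tested member probes with the processed signals (horizontal) and with normexp and loess (vertical), colored by mean signal, with the line of equal values. Most points lie nearer to 0 on the vertical than on the horizontal axis; all 63 called probes keep their sign.

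The number of probes past the test was lower with another background correction and dye normalization, which were changed together. With normexp and loess, 7 member probes were higher and 7 lower, against 3.58% and 4.15% of all probes, and these were 14 of the 63 called with the processed signals. Among these, Cdh11 (0.57, adjusted p = 0.0035), Gja1 (-0.64, adjusted p = 0.0035), Ctnnal1 (-0.69, adjusted p = 0.0097), Cdh2 (-0.66, adjusted p = 0.017), Cdh3 (0.54, adjusted p = 0.027), Pcdh9 (-0.48, adjusted p = 0.027), Pcdhb17 (0.64, adjusted p = 0.029), Ctnnd2 (-0.61, adjusted p = 0.047) and Gjb2 (0.59, adjusted p = 0.0499) passed under both corrections. The other 20 of the 29 changed genes that the naming rule gives kept their direction without passing, among them Cdh16 (0.33, adjusted p = 0.10), Gja3 (-0.24, adjusted p = 0.088), Pcdh20 (-0.56, adjusted p = 0.065) and Pcdhb21 (0.51, adjusted p = 0.054).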

How the data were processed

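The authors hybridised amplified RNA of STMN1-/- and STMN1+/+ MEFs to 4 two-channel Agilent arrays, labelled with Cy3 and Cy5 and with the dyes exchanged between the first and the last pair of arrays. The deposited values are scanner intensities from Feature Extraction 9.5.3.1 after spatial detrending, background subtraction and LOWESS dye normalization, with surrogate values for spots near background, which can compress or stretch the ratios of dim probes. Spots called outliers were set to missing, control spots were left out and spots of a probe were averaged. Log2 ratios of STMN1-/- over STMN1+/+ intensities were turned by the dye labels, and limma 3.58.1 (R 4.3.3; Benjamini-Hochberg, threshold 0.05) tested each probe's mean ratio against 0, after a trial on simulated data. Probes had to be above background, as Feature Extraction calls it, for 1 genotype or the other on 1 array or more, with values on at least 2. Python 3.11.15, pandas 2.3.3 and matplotlib 3.10.9 handled sequences and plots. Depth of an array is its number of probes above background, 24457 to 25353 with STMN1-/- RNA and 24785 to 25628 with STMN1+/+ RNA. Array ratios correlated at 0.689 and 0.703 over all probes within a dye orientation and at 0.445 to 0.489 between orientations. All arrays lay on 1 slide, so no batch could be tested.

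A gene was represented by its tested probe of highest mean signal. Named by rule were Cdh2, Cdh3, Cdh4, Cdh11, Cdh13, Ctnna1, Ctnnb1, Ctnnd1, Gja1, Gjc1, Panx1, Fat1 and Celsr1, up to 8 changed genes a group past 1.5-fold by size, genes whose probes disagreed in direction, and up to 4 changed genes of each partner list. Other genes were named after their values were seen, and some genes that the rule names are not reported here. Symbols were updated through RefSeq: the files' Gja7 is Gjc1, their Gjc1 is Gjd3 and Pcdh21 is Cdhr1. The members, the marker lists and the partner lists were chosen with earlier results of these data known. The authors' 2 lists of changed genes, which hold fold changes and p-values, were not used. Matches of the probes to all transcripts were not analysed here. Alternatives tried were normexp background correction (offset 50) with loess, median centring, no filter and a stricter filter on dim probes, outlier spots kept, a dye coefficient, the methods' t-test and each array left out.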

Additional observations from a re-analysis of the deposited data

Results flagged for a closer look

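In 110 member probes with values on all 4 arrays, 5 had 1 array far from the other 3 by Dixon's criterion for 4 values, where chance gives about 1 in 20. A Cdh8 probe stood at a log2 ratio of -4.88 on replicate 1. A second Ctnnd1 probe stood at 2.34 on replicate 1. The Pcdhb10 probe stood at -0.32 on replicate 4, against positive ratios on the others. A Celsr2 probe stood at 0.26 on replicate 3, and the dim Panx1 probe at -0.077 on replicate 2. The mean log2 ratios of all 5 probes did not pass the test.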

How the results depend on the processing

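Against 37 higher and 26 lower member probes, where 11.2% of all probes were higher and 11.2% lower, normexp with loess gave 7 and 7 (3.58% and 4.15% of all probes), the methods' t-test 21 and 14 adjusted by Benjamini-Hochberg (7.14% and 6.81%), and 1 probe a gene 25 and 17. Unadjusted, the methods' t-test gave 40 and 27 members and 4449 and 4642 of all 27648 probes. Leaving out each array gave 24 to 27 higher and 15 to 16 lower (5.30% to 5.99% and 4.89% to 5.59%). Median centring (37 and 26; 11.4% and 10.9%), dim probes left in (31 and 21; 4.798% and 4.556%), probes above background on all arrays (37 and 29; 13.86% and 13.99%), outlier spots kept (37 and 26; 11.4% and 11.4%) and a dye coefficient (40 and 29; 19.5% and 19.5%) stayed within 1.5 times. No called member probe changed sign in these settings. Of 362 values for the 33 genes that the naming rule gives, under the alternatives, 290 kept their direction and side of the threshold, 69 kept the direction without passing, and 3 changed sign, all in genes that had not passed: Ctnnd1 was -0.013 with normexp and loess and -0.048 without replicate 1 (range over arrays left out -0.048 to 0.22), and Panx1 -0.0096 without replicate 1 (range -0.0096 to 0.056). The cause was not tested. Each array's ratio sets both genotypes side by side, so the test is paired by array, and no further replicate block could be fitted. Ratios of probes close to background are limited by the signal left after subtraction.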
